A study of Mus musculus with 36 samples.

Results

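Palates of TGFβ3−/− mouse embryos at embryonic day (E) 16.5 were compared with those at E15.5, the day before. The libraries were taken by their titles: E15.5 TGFb3-KO and E16.5 TGFb3-KO, each with 2 animals sequenced on 2 lanes, which is 8 of the 36 libraries and 4 of the 18 animals of the series. All embryos were C57BL/6 mice from crosses of heterozygous parents, none was treated, and the RNA was poly(A)-selected total RNA of palatal shelves. TGFβ3−/− embryos carry the inactivated gene in every cell from conception, so the loss is not limited to the palate. TGFβ3+/− (TGFb3-HT) and wildtype (WT, TGFb3-WT) palates of the same 2 ages, again 2 animals each, were used to see where the knockout differed. They also entered the filter on low values and the estimate of the spread between animals behind the knockout calls. Of the 4 E15.5 TGFβ3+/− libraries, 3 carry an age of 14.5 days in another label field, and the age in their titles was used, so each TGFβ3+/− change rests on those titles. The design text speaks of triplicates, while the labels show 2 animals per group. E14.5 palates of the 3 genotypes entered only that filter and that estimate of the spread.

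TGFβ3 is a secreted growth factor that the medial edge epithelium of the palatal shelves makes before they meet. Mice without it form shelves that rise but do not fuse, which leaves a cleft palate. In the days around fusion the oral face of the palate forms a stratified epithelium, the nasal face a ciliated one, and the mesenchyme gives rise to bone and muscle. A palate sample therefore holds many cell types, and in such bulk RNA fewer cells of a type and less RNA per cell cannot be told apart.

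Expression was taken as FPKM, the number of sequenced fragments scaled to the length of the gene and the size of the library, averaged over the 2 lanes of an animal and tested as log2(FPKM + 1). The numbers of assembled loci in the 8 libraries ran from 23402 to 30380. Replicate 1 of each age stood apart from replicate 2 in having more loci, of which 66.6% to 69.5% lay on known exons, against 73.4% to 78.5% in replicate 2. The targeted gene, Tgfb3, was at 43.5 and 30.4 FPKM in TGFβ3−/− animals at E15.5 and at 42.6 and 42.0 FPKM at E16.5, and was not called between the ages (log2 change 0.21 ± 0.16, SE). Its level sums all exons, and the sources do not name the deleted part, so it does not check the genotype. The sex of the embryos is not in the labels. Xist, the RNA of the inactive X chromosome, had 146 and 122 FPKM in the 2 TGFβ3−/− animals of E15.5 and had no locus at E16.5, where the Y-linked gene Ddx3y was at 15.8 FPKM in both animals. Both E15.5 animals thus carried female and both E16.5 animals male transcripts. The ages also ran on different lanes (3 and 5 against 6 and 7), so age, sex and lane cannot be told apart in this comparison. By the same genes, E15.5 WT replicate 1 and both E16.5 WT animals carried female transcripts, and E15.5 WT replicate 2 male ones. In TGFβ3+/−, both E15.5 animals and E16.5 replicate 1 carried female transcripts, and E16.5 replicate 2 male ones. Sex thus changed differently with age in each genotype, so the differences between genotypes given below may include one of sex.

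The 2 animals of an age were more alike than animals of different ages. Over the 10338 genes valued in every one of the 18 animals, Pearson's r of log2(FPKM + 1) was 0.979 between the E15.5 animals and 0.972 between the E16.5 animals, and it was 0.952 to 0.960 between ages. These correlations are across genes, which are not independent replicates.

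Of 12963 genes tested with limma, 20 were called higher at E16.5 (0.154%) and 3 lower (0.0231%), or 23 in all (0.177%), at a Benjamini-Hochberg adjusted p under 0.05 and a fold of at least 2. Gas6, the ligand of the TAM receptor kinases, passed the adjusted p with a smaller fold, which made 21 genes higher by that p alone (0.162%). It was at 15.1 and 16.0 FPKM at E15.5 and at 31.5 and 28.2 FPKM at E16.5. Unadjusted, 932 genes were higher (7.19%) and 842 lower (6.5%) at p under 0.05. The 20 and 3 calls depended on single animals: without E16.5 replicate 1 they were 3 and 1, without E15.5 replicate 1 they were 6 and 2, and without E16.5 replicate 2 they were 48 and 33. Single calls were lost in the same way: Hbb-y, Prr18, Vpreb3 and 2300002M23Rik without E16.5 replicate 1, Krt4, Hba-x, Ltf, Hp and Gm1574 without replicate 1 of either age, Snx14 without either E15.5 animal, and all the others but 2810422J05Rik without either E15.5 animal or E16.5 replicate 1. Some genes could not be tested each time. 2810422J05Rik had an E15.5 value only in replicate 2, and Vpreb3 and 2300002M23Rik only in replicate 1, so leaving that animal out removed them. Snx14 likewise had an E16.5 value only in replicate 1. None of the 23 called genes lies on chromosome X or Y, where 455 of the 12963 genes tested lie. With the Xist level as a covariate, over the same 10338 genes, the calls of limma were 3 and 0 (794 genes in either direction at an unadjusted p under 0.05), against 5 and 2 over those genes without the covariate. Of these 455 genes on chromosomes X and Y, 28 were higher and 41 lower at an unadjusted p under 0.05 without the covariate. Of all genes, 7.19% were higher and 6.5% lower. The median change of the 455 genes was −0.04. The part of sex and lane in the results below was not tested further.

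**Figure D1:**
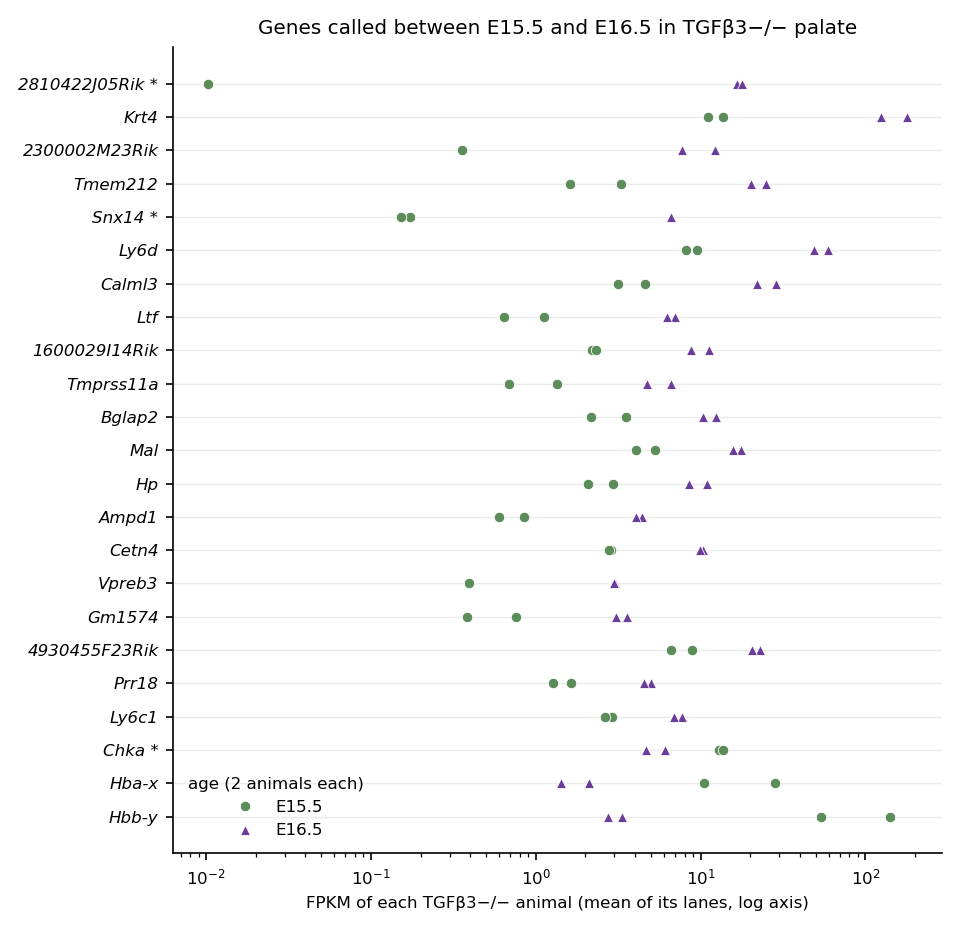
FPKM of each TGFβ3−/− animal (log axis) for the 23 genes called between E15.5 (circles) and E16.5 (triangles), 2 animals per age. Animals without a value for a gene have no point, because it had no assembled locus or its loci were left out as shared with another gene. Asterisks mark 3 genes whose largest locus covered under 10% of the exon bases in at least 1 library. Hbb-y fell from 140 and 53.7 to 2.73 and 3.34 FPKM, and Krt4 rose from 11.1 and 13.6 to 179 and 124 FPKM.

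The assembled loci of a gene did not cover the same part of it in every library. For 3 of the 23 genes the largest locus covered under 10% of the exon bases in at least 1 library, and these values do not measure the whole gene. Chka, a choline kinase, was listed at 12.9 and 13.6 FPKM at E15.5 and at 4.65 and 6.09 FPKM at E16.5, but in the second E16.5 lane of each animal the locus with the highest level covered only 5.3% of the exon bases. In the first E16.5 lanes, where 1 locus covered 91.0% and 99.6% of them, that locus was at 9.91 and 12.0 FPKM, and with 1 locus per gene its log2 change was −0.35. Snx14, a sorting nexin, was valued at E15.5 from loci over 6.3% of its exon bases, in 1 lane of each animal. Replicate 2 had no locus in its other lane. In the other lane of replicate 1 a locus over 74.7% of the exon bases was left out as shared with another gene. In E16.5 replicate 2 the Snx14 loci over 99.6% of its exon bases, at 44.8 and 43.5 FPKM, gave no value either. Its E16.5 level thus rests on replicate 1. 2810422J05Rik was at 0.0103 FPKM in 1 E15.5 animal from a locus over 2.2% of its exon bases. The other E15.5 animal had a locus over 49.9% of them, at 10.4 and 9.23 FPKM in its lanes, but got no value. E15.5 WT animals had 19.4 and 17.4 FPKM. Leaving these 3 genes aside, 18 genes rose and 2 fell. For 9 more genes the lowest such coverage was between 10% and 75%. It was lowest for Tmprss11a (25.0%), Ltf (42.5%, with another locus beside it) and Ampd1 (47.4%), each in 1 lane at E15.5. A level is weighted by this coverage, so the E15.5 levels of Tmprss11a and Ampd1 in replicate 2 are lowered by it. The E15.5 loci of Vpreb3 covered 60.0% and 72.8% of its exon bases, against 90.8% to 94.6% at E16.5.

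The genes that fell were the embryonic globins of primitive red blood cells, Hbb-y (chromosome 7, 111000259 to 111001754, minus strand, NCBIM37) and Hba-x (chromosome 11, 32176400 to 32178116, plus strand, NCBIM37). Primitive red cells arise in the yolk sac and are replaced in the circulation by definitive cells from the fetal liver, which carry adult globins. Hbb-y was at 140 and 53.7 FPKM in TGFβ3−/− animals at E15.5 and at 2.73 and 3.34 FPKM at E16.5, a log2 change of −4.45 ± 0.50 (SE; adjusted p = 0.00613). Hba-x went from 28.1 and 10.5 FPKM to 2.11 and 1.43 FPKM (−2.74 ± 0.42, adjusted p = 0.0339). For both genes each E15.5 animal was above each E16.5 animal. Hbb-bh1, the third embryonic globin listed, was at 2.37 and 1.02 FPKM at E15.5 and had no value at E16.5. The adult globin Hbb-b1 was at 1288.9 and 896 FPKM at E15.5 and at 2120.0 and 1136 FPKM at E16.5. The adult gene's groups overlapped, and its change was not called (0.53 ± 0.61). In all, 5 definitive erythroid genes were tested, of which 0 were called and 0 passed an unadjusted p under 0.05 in limma. Only 3 of the 5 had a value in all 4 animals, so their levels are not summed. Both embryonic globins were also called lower in WT and in TGFβ3+/− palates: Hbb-y went from 135 and 117 to 4.93 and 6.39 FPKM in WT, and from 106 and 42.4 to 7.50 and 5.02 FPKM in TGFβ3+/−.

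The sequences just before the starts of these 2 genes are shown to place letter strings known from globin promoters. They are the 140 bases upstream of each start, 5′ to 3′ on the gene's strand (RefSeq, GRCm38.p6), with matches to CACCC (in both), to CCAAT (in Hbb-y) and to TATAAA (in Hba-x) in capitals. No CCAAT was found in Hba-x and no TATAAA in Hbb-y. The windows are chr7:103853208-103853347 (minus strand) for Hbb-y and chr11:32276460-32276599 (plus strand) for Hba-x.
Hbb-y: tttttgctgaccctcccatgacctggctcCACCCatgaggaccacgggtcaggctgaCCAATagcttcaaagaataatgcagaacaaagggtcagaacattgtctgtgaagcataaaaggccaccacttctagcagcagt
Hba-x: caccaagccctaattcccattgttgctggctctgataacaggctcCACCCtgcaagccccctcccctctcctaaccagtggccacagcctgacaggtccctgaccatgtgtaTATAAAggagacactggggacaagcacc
The CACCC box is bound by Krüppel-like factors of red cells, and the other elements occur in many core promoters. Searched on both strands over 250 bases upstream, CACCC was present in 54.5% of 27025 genes, CCAAT in 37.5% and TATAAA in 14.3%. Their presence here is a description of these promoters.

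Krt4 and 4 other called genes are expressed in stratified epithelium. Keratins of this tissue change as its cells leave the basal layer: Krt5 and Krt14 mark the base, Krt4 and Krt13 the layers above it in the mouth, Krt1 and Krt10 those of skin and other cornified surfaces. Krt4 (chromosome 15, 101748967 to 101755166, minus strand, NCBIM37) was at 11.1 and 13.6 FPKM in TGFβ3−/− animals at E15.5 and at 179 and 124 FPKM at E16.5. Both E16.5 animals were far above both E15.5 animals, and the change was 3.50 ± 0.45 on the log2 scale (11.3-fold, adjusted p = 0.0157). Calml3, a calmodulin-like protein of epithelial cells, rose from 4.60 and 3.15 to 28.7 and 22.1 FPKM (2.44 ± 0.40, adjusted p = 0.0469). Ly6d, a surface protein of differentiating keratinocytes that was not on the list, rose from 9.47 and 8.15 to 59.6 and 48.6 FPKM (2.49 ± 0.32, adjusted p = 0.0241). Tmprss11a, a membrane serine protease, and Mal, a proteolipid of apical membrane transport, were also called, with log2 changes of 1.73 ± 0.23 and 1.64 ± 0.26. Tmprss11a was at 1.34 and 0.684 FPKM at E15.5 and at 6.59 and 4.73 FPKM at E16.5, and Mal at 4.03 and 5.27 FPKM and then at 17.5 and 15.7 FPKM.

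Among the other members of the suprabasal and cornified list, none passed the adjusted test. Krt13 was at 21.2 and 14.8 FPKM at E15.5 and at 539 and 334 FPKM at E16.5. Its change of 4.50 ± 0.83 was the largest of those given here for a keratin, with an adjusted p of 0.0692 in limma. Krt6a, a keratin of oral and wounded epithelium, was at 24.3 and 15.6 FPKM and then at 184 and 139 FPKM (2.97 ± 0.61, adjusted p = 0.0692). The small proline-rich proteins of the cornified envelope followed the same order, Sprr1a at 10.1 and 5.18 FPKM against 100.2 and 46.2 FPKM, and Sprr3 at 2.96 FPKM in the 1 E15.5 animal with a value against 98.3 and 43.6 FPKM. Krt1 was at 12.6 and 2.83 FPKM and then at 78.0 and 42.9 FPKM (3.03 ± 0.84, adjusted p = 0.147), whereas Krt10, its usual partner, was at 12.8 and 5.78 FPKM and then at 15.3 and 10.6 FPKM (0.50 ± 0.82).

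Over the list, 20 genes were tested, 2 were called higher and 0 lower, and 16 were higher at an unadjusted p under 0.05. Of the 15 members valued in all 4 animals, 14 had both E16.5 animals above both E15.5 animals, as did 24.7% of all genes. The median log2 change was 2.20, beside −0.01 over all genes tested, and the summed level of the list was 214 and 162 FPKM at E15.5 and 1653 and 1017 FPKM at E16.5. A member without a value in an animal adds nothing to that animal's sum, so the sums are not over the same genes. The basal epithelium list was nearer the background, with 0 of 19 genes called, 3 higher at an unadjusted p under 0.05 and a median of 0.05. Its members included Krt5 (106 and 103 FPKM, then 235 and 162 FPKM, a change of 0.89 that was −0.76 with 1 locus per gene) and the transcription factor Trp63 (8.89 and 8.12 FPKM, then 9.17 and 8.49 FPKM).

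The same genes were followed in the other genotypes. In TGFβ3+/−, Krt4 was at 8.68 and 10.3 FPKM at E15.5 and at 159 and 109 FPKM at E16.5, and the median change of the list was 2.61. In WT, Krt4 was at 43.7 and 10.4 FPKM and then at 59.6 and 57.3 FPKM, and the median was −0.05. E15.5 WT replicate 1 was the high animal for many of these genes, with Krt1 at 155 FPKM and Krt10 at 183 FPKM against 42.0 and 68.4 FPKM in replicate 2. The difference between the changes of TGFβ3−/− and WT was positive at an unadjusted p under 0.05 for 14 of 19 list members, beside 2.96% of all 12722 genes. Sex also changed differently with age in these genotypes, so genotype and sex cannot be told apart in this difference. None passed the adjusted test of limma: for Calml3 the difference was 2.68 on the log2 scale (adjusted p = 0.581) and for Krt4 2.11 (adjusted p = 0.637). Against TGFβ3+/− 0 of 19 members reached an unadjusted p under 0.05 in limma.

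**Figure D2:**
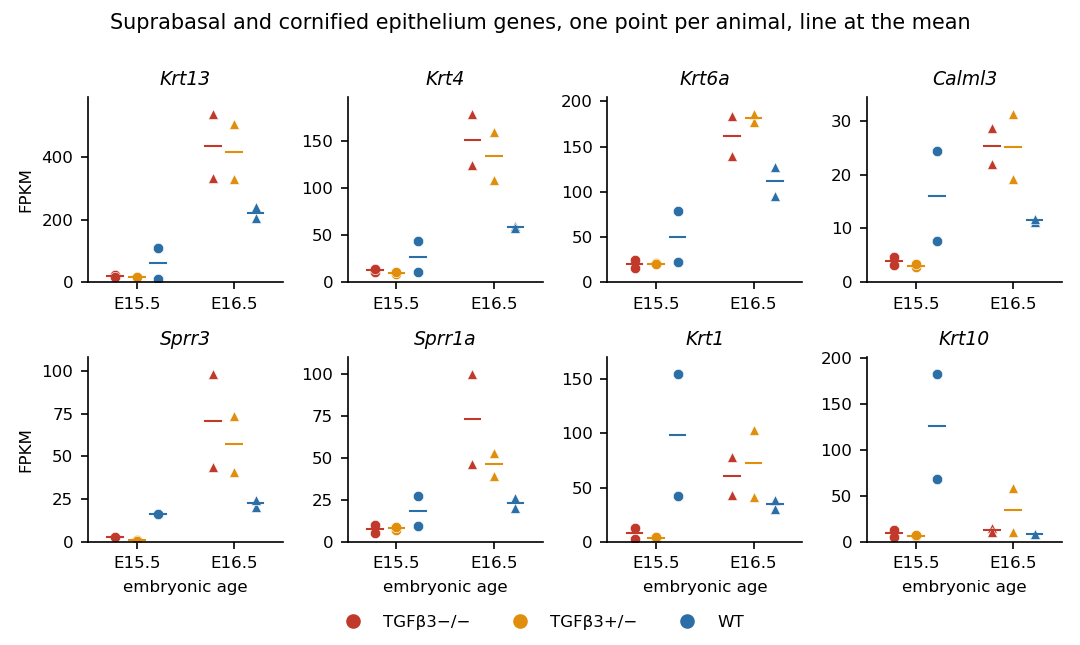
FPKM by age for 8 genes of stratified epithelium in TGFβ3−/− (red), TGFβ3+/− (orange) and WT (blue) palates, one point per animal and a line at the mean of the 2 animals. Krt13 and Krt4 were low at E15.5 and high at E16.5 in TGFβ3−/− and TGFβ3+/−, while 1 E15.5 WT animal was already raised, and Krt10 was highest in the E15.5 WT animals.

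Genes of motile cilia formed another group. Multiciliated cells are specified by regulators such as Mcidas, Ccno and Myb, then Foxj1 and the Rfx factors switch on the genes of the axoneme, which is the moving core of the cilium. Of the called genes, Cetn4, a centrin of basal bodies, and Tmem212, a membrane protein, were not on the list. Cetn4 rose from 2.86 and 2.79 to 10.3 and 9.95 FPKM (1.54 ± 0.26, adjusted p = 0.0469) and Tmem212 from 1.62 and 3.31 to 25.0 and 20.3 FPKM (2.81 ± 0.40, adjusted p = 0.0469). Both genes were also higher at E16.5 in every WT and TGFβ3+/− animal, Tmem212 with 27.4 and 50.5 FPKM in E16.5 WT.

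On the motile cilia list 26 genes were tested, 0 were called by limma with the adjusted p, and 15 were higher and 0 lower at an unadjusted p under 0.05. All 15 encode parts of the axoneme or other proteins of ciliated cells, and none is one of the regulators. Tekt4, a tektin of the ciliary doublets, was at 1.71 and 2.95 FPKM at E15.5 and at 9.87 and 8.26 FPKM at E16.5 (1.62 ± 0.27, adjusted p = 0.0589). Sntn, of the ciliary tip, was at 0.567 FPKM in the 1 E15.5 animal with a value and at 9.10 and 7.42 FPKM at E16.5 (2.56 ± 0.31, adjusted p = 0.0526). Dnaic1, a dynein intermediate chain, was at 1.12 and 1.29 FPKM and then at 4.28 and 3.12 FPKM (1.08 ± 0.17, adjusted p = 0.0638). None of the regulators passed an unadjusted p under 0.05. Foxj1 was at 43.0 and 47.6 FPKM at E15.5 and at 49.9 and 40.4 FPKM at E16.5, Ccno at 16.4 and 19 and then at 13.5 and 12.1 FPKM, and Myb at 12.6 and 13.7 and then at 7.92 and 12.1 FPKM. For Ccno and Myb, as for 23.4% of all genes, both E16.5 animals were below both E15.5 animals, and neither change was called (−0.44 ± 0.44 and −0.39 ± 0.31). Over the list the median change was 0.92, beside 1.58 in WT and 0.67 in TGFβ3+/−, and the difference from WT was negative at an unadjusted p under 0.05 for 5 of 25 members, beside 3.56% of all genes.

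**Figure D3:**
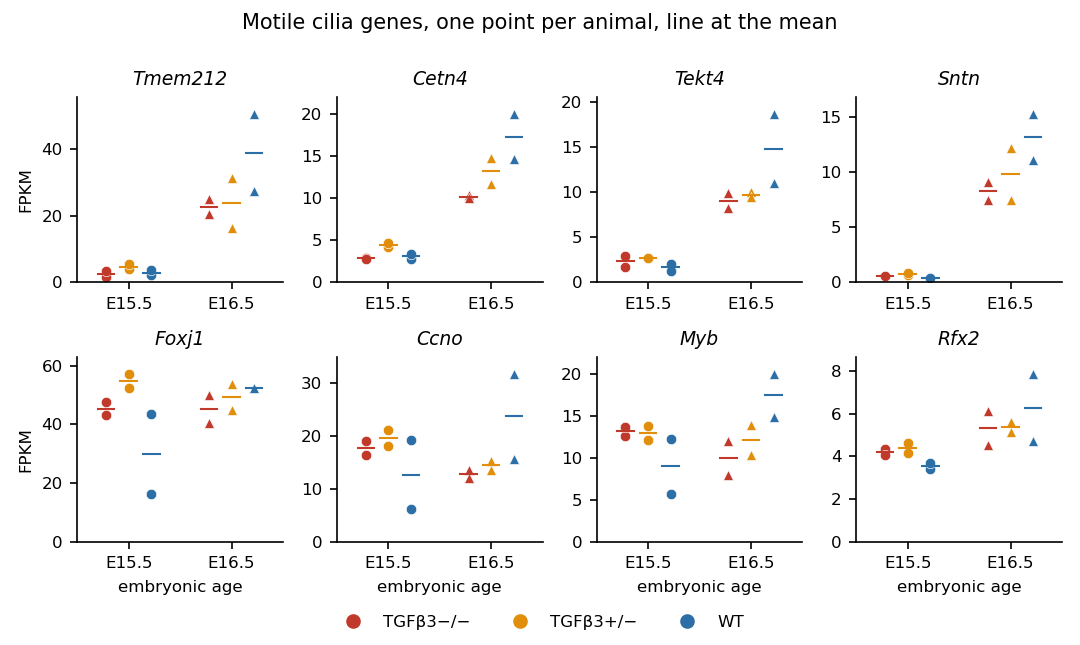
FPKM by age for Tmem212, Cetn4, Tekt4 and Sntn (top row) and the regulators Foxj1, Ccno, Myb and Rfx2 (bottom row) in TGFβ3−/− (red), TGFβ3+/− (orange) and WT (blue) palates, one point per animal, line at the mean, animals without a value left out. In TGFβ3−/− the top-row genes were higher in both E16.5 animals, Tmem212 at 25.0 and 20.3 FPKM against 1.62 and 3.31 FPKM, while Foxj1 overlapped between the ages.

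The promoters of the cilia genes are shown for the X-box, the element that the Rfx factors bind. It was found within 250 bases upstream of 6 of the 22 list members with a RefSeq promoter (27.3%), beside 1.49% of 27025 genes. The windows below are 5′ to 3′ on the gene's strand (RefSeq, GRCm38.p6), with the X-box match in capitals. They lie at chr4:41569760-41569793 (Dnaic1, plus strand), chr11:114727371-114727413 (Dnaic2, plus), chr8:110266941-110266976 (Hydin, plus), chr8:116504949-116504991 (Dynlrb2, plus), chr4:126325690-126325732 (Tekt2, minus) and chr13:112987568-112987611 (Ccno, plus).
Dnaic1: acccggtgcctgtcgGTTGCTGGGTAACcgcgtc
Dnaic2: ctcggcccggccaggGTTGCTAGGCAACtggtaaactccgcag
Hydin: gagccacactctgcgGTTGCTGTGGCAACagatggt
Dynlrb2: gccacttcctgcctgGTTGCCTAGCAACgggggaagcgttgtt
Tekt2: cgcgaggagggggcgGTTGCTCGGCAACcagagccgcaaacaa
Ccno: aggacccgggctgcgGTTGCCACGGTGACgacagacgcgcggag
Apart from Ccno, the genes encode subunits of dyneins, a tektin or a protein of the central pair of the axoneme. In TGFβ3−/− palates Dnaic2 was at 3.72 and 4.68 FPKM at E15.5 and 9.59 and 8.23 FPKM at E16.5, Dynlrb2 at 33.7 and 40.6 and then 83.3 and 68.5 FPKM, and Hydin at 0.166 and 0.0665 and then 1.98 and 0.866 FPKM. Tekt2 had 10.7 FPKM in the 1 E15.5 animal with a value and 14.4 and 10.4 FPKM at E16.5. Genes with an X-box thus included members with and without a difference between the ages.

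Of the skeletal muscle genes, 1 that was not on the lists was called. Ampd1, the AMP deaminase of skeletal muscle, rose from 0.848 and 0.594 to 4.44 and 4.06 FPKM (1.61 ± 0.24, adjusted p = 0.0469). Of the contractile list 19 genes were tested, 0 were called by limma, and 13 were higher and 0 lower at an unadjusted p under 0.05. For each of the 18 members valued in all 4 animals both E16.5 animals were above both E15.5 animals, against 24.7% of all genes. Mylpf, a regulatory myosin light chain of fast fibres, was at 98.6 and 56.6 FPKM at E15.5 and at 355 and 375 FPKM at E16.5 (2.27 ± 0.78, adjusted p = 0.225). Skeletal actin, Acta1, was at 86.0 and 43.9 FPKM and then at 306 and 267 FPKM (2.20 ± 0.73, adjusted p = 0.209). The perinatal myosin heavy chain Myh8 was at 10.9 and 6.14 FPKM and then at 77.6 and 40.2 FPKM (2.63 ± 0.72, adjusted p = 0.140). The list's median change was 1.61, and its summed level was 634 and 286 FPKM at E15.5 and 1747 and 1651 FPKM at E16.5. A member without a value in an animal adds nothing to that sum.

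Muscle regulators were a list of their own. Of 14 regulators and receptor subunits 0 were called and 0 passed an unadjusted p under 0.05 in limma. Their median change was 0.61, with 0.73 in TGFβ3+/− and −0.48 in WT. Of the 13 valued in all 4 animals, 9 had both E16.5 animals above both E15.5 animals, as did 24.7% of all genes. For 1 of them both were below, as for 23.4% of all genes. Myod1, which commits cells to muscle, was at 9.08 and 3.48 FPKM at E15.5 and at 10.1 and 8.69 FPKM at E16.5, and Myog, which drives their differentiation, at 25.7 and 11.1 and then at 34.6 and 31.9 FPKM. Pax3, of muscle progenitors, was at 12.4 and 7.12 FPKM and then at 4.58 and 4.12 FPKM (−0.97 ± 0.62, adjusted p = 0.512). The muscle level also varied between animals of one group in the other genotypes: Mylpf was at 132 and 503 FPKM in the 2 E16.5 TGFβ3+/− animals and at 214 and 68.9 FPKM in the 2 E16.5 WT animals. The median change of the contractile list was 1.31 in TGFβ3+/− and 0.02 in WT. The difference of TGFβ3−/− from WT was positive at an unadjusted p under 0.05 for 2 of 19 contractile members. This held for 3 of 14 members of the regulator list and for 2.96% of all genes.

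**Figure D4:**
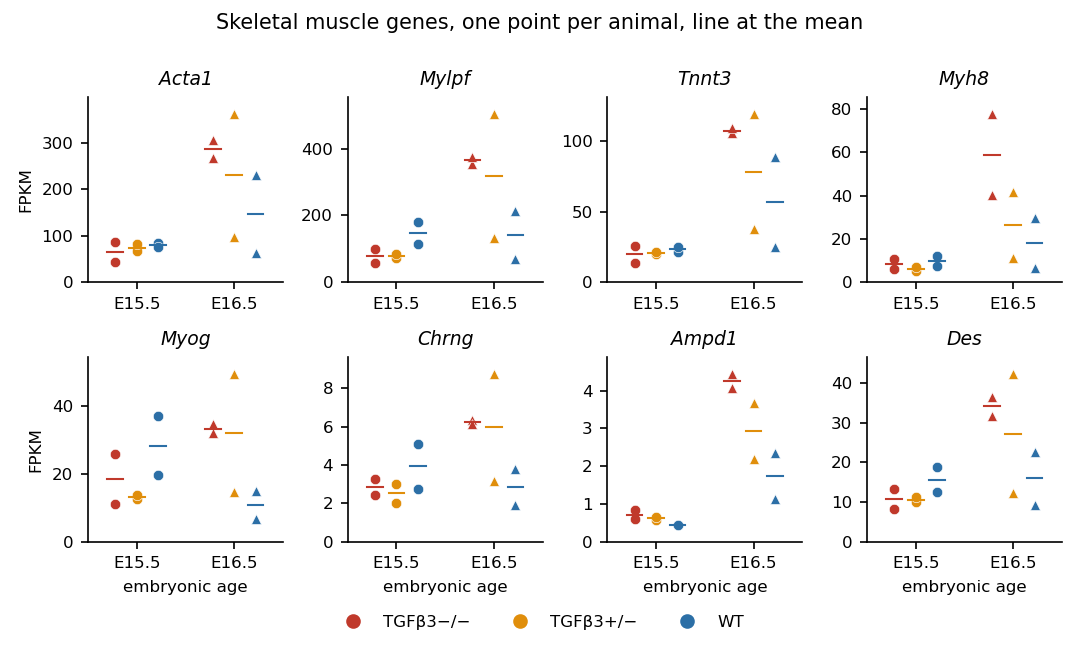
FPKM by age for 8 skeletal muscle genes in TGFβ3−/− (red), TGFβ3+/− (orange) and WT (blue) palates, one point per animal, line at the mean. Both E16.5 TGFβ3−/− animals were above both E15.5 animals for each gene, Mylpf at 355 and 375 against 98.6 and 56.6 FPKM, and the E16.5 animals of the other genotypes were widely spread.

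The muscle promoters are shown for CAGCTG, an E-box of the kind that MyoD and myogenin bind. It was present within 250 bases upstream of 10 of 23 contractile genes with a RefSeq promoter (43.5%), beside 14.7% of 27025 genes. The windows below have the E-box in capitals and run 5′ to 3′ on the gene's strand (RefSeq, GRCm38.p6). They lie at chr8:123894976-123895011 (Acta1, minus strand), chr7:127211542-127211577 (Mylpf, plus), chr1:66945260-66945295 (Myl1, minus), chr1:172220070-172220105 (Casq1, minus) and chr1:75360241-75360276 (Des, plus).
Acta1: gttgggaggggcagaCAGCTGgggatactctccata
Mylpf: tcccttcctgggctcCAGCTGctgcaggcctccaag
Myl1: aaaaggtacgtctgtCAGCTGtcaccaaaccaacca
Casq1: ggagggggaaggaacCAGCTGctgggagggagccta
Des: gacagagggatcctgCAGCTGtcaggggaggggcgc
Myl1, an alkali myosin light chain, was at 73.3 and 26.8 FPKM at E15.5 and at 202 and 208 FPKM at E16.5. Casq1, the calcium store protein of the sarcoplasmic reticulum, was at 1.78 and 1.96 FPKM and then at 8.63 and 8.91 FPKM (1.77 ± 0.42, adjusted p = 0.0941), and the intermediate filament protein gene Des at 13.4 and 8.16 FPKM and then at 36.5 and 31.8 FPKM. All 5 of these genes had both E16.5 animals above both E15.5 animals, as did 24.7% of all genes. So did each of the 18 contractile members valued in all 4 animals, so this order does not set genes with the E-box apart.

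Bone genes gave 1 call. Bglap2, an osteocalcin gene of mature osteoblasts, rose from 2.17 and 3.52 to 10.3 and 12.3 FPKM (1.69 ± 0.22, adjusted p = 0.0469), and this call was lost when any 1 of the 4 animals was left out. Bglap, the neighbouring osteocalcin copy, was at 2.73 and 6.09 FPKM and then at 18.9 and 23.3 FPKM (2.10 ± 0.31, adjusted p = 0.0549). The 2 genes are near-identical, so how their reads were split is uncertain. Of 17 osteoblast and bone matrix genes tested 7 were higher and 0 lower at an unadjusted p under 0.05, where 7.19% of all genes were higher. The list's median change was 0.33, beside 0.42 in WT and 1.09 in TGFβ3+/−. The difference from TGFβ3+/− was negative at an unadjusted p under 0.05 for 5 of 16 members, beside 353 of 12620 genes. The type I collagen gene Col1a2 was at 994 and 991 FPKM and then at 2204 and 1561 FPKM (0.90 ± 0.31, adjusted p = 0.233). The transcription factor Sp7, which commits cells to bone, was at 40.6 and 39.7 FPKM and then at 47.1 and 39.0 FPKM (0.09 ± 0.23). Among 11 osteoclast genes 0 were called by limma, 5 were higher at an unadjusted p under 0.05, and the median was 0.53. Ctsk, the protease that digests bone collagen, was at 43.5 and 64.0 FPKM and then at 86.3 and 105 FPKM (0.84 ± 0.28, adjusted p = 0.217). The cartilage list had 0 of 17 genes called, 1 higher at an unadjusted p under 0.05 and a median of 0.14, while its medians in the other genotypes were 1.21 in WT and −1.07 in TGFβ3+/−.

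Several secreted and immune genes rose. Ltf, lactoferrin, an iron-binding protein of mucosal secretions and neutrophils, rose from 0.643 and 1.13 to 7.01 and 6.27 FPKM (2.03 ± 0.26, adjusted p = 0.0157). Hp, haptoglobin, which binds free haemoglobin, rose from 2.07 and 2.93 to 10.9 and 8.54 FPKM (1.62 ± 0.23, adjusted p = 0.0241). Ly6c1, a surface protein of leukocytes and endothelium, rose from 2.91 and 2.63 to 7.68 and 6.92 FPKM (1.14 ± 0.17, adjusted p = 0.0301). Vpreb3, a gene of B-cell precursors, was at 0.393 FPKM in the 1 E15.5 animal with a locus and at 3.01 and 2.98 FPKM at E16.5 (1.52 ± 0.19, adjusted p = 0.0241). All 4 of these genes were called higher in WT and in TGFβ3+/− palates as well.

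Immune lists had no called members. Of 11 granulocyte and mast cell genes 0 were called and 6 were higher at an unadjusted p under 0.05, beside 7.19% of all genes. The median change was 1.24, with 0.39 in WT and 0.66 in TGFβ3+/−. The difference from WT was positive at an unadjusted p under 0.05 for 4 of 11 members, beside 2.96% of all genes. Tpsb2, a mast cell tryptase, was at 3.20 and 0.934 FPKM at E15.5 and at 12.8 and 9.49 FPKM at E16.5 (2.08 ± 0.43, adjusted p = 0.0783). S100a9, a neutrophil alarmin, was at 6.59 and 15.7 FPKM and then at 27.0 and 48.0 FPKM (1.72 ± 0.47, adjusted p = 0.144). Of 17 macrophage genes 0 were called and 5 were higher at an unadjusted p under 0.05, with a median of 0.24. Tyrobp, a signalling adaptor of myeloid cells, was at 15.1 and 18.6 FPKM and then at 31.0 and 30.7 FPKM (0.84 ± 0.17, adjusted p = 0.0681), and Ptprc, a surface protein of all leukocytes, at 1.62 and 1.62 FPKM and then at 1.64 and 1.62 FPKM.

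The other called genes have less known roles in the palate. The genes 2300002M23Rik, 1600029I14Rik and 4930455F23Rik had log2 changes of 2.98 ± 0.28, 1.75 ± 0.25 and 1.39 ± 0.23. The first had 0.357 FPKM in the 1 E15.5 animal with a locus, against 12.2 and 7.70 FPKM at E16.5. Prr18 rose from 1.28 and 1.63 to 4.99 and 4.5 FPKM (1.23 ± 0.13, adjusted p = 0.00613) and Gm1574 from 0.381 and 0.762 to 3.08 and 3.55 FPKM (1.47 ± 0.20, adjusted p = 0.0249). Both were called higher in WT and in TGFβ3+/−, Prr18 with 6.65 and 7.55 FPKM at E16.5 in WT.

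Connective tissue and nerve lists lay above the background without calls. Of 24 genes of fibrous connective tissue and tendon 0 were called, 9 were higher at an unadjusted p under 0.05 and the median was 0.48, with −0.03 in WT and 0.57 in TGFβ3+/−. Biglycan, Bgn, was at 201 and 221 FPKM at E15.5 and at 359 and 303 FPKM at E16.5 (0.64 ± 0.14, adjusted p = 0.0783). Tnmd, tenomodulin of tendon, was at 3.90 and 3.21 FPKM and then at 11.3 and 8.74 FPKM (1.27 ± 0.30, adjusted p = 0.0865). The difference from WT was positive at an unadjusted p under 0.05 for 8 of 24 members of that list, beside 2.96% of all genes. All 9 Schwann cell and glia genes tested had both E16.5 animals above both E15.5 animals, as did 24.7% of all genes. Of the 9, 0 were called, 5 were higher at an unadjusted p under 0.05, and the median was 0.54, with 0.03 in WT and −0.03 in TGFβ3+/−. The difference from WT was positive at an unadjusted p under 0.05 for 3 of 9, beside 2.96% of all genes. Against TGFβ3+/− this held for 3 of 9, beside 168 of 12620 genes. Mbp, a myelin protein gene, was at 5.76 and 4.70 FPKM and then at 10.8 and 12.5 FPKM (1.02 ± 0.28, adjusted p = 0.135). The 14 neuronal genes had a median of 0.89 but large errors, Nefl at 9.71 and 5.55 FPKM and then at 41.1 and 58.0 FPKM (2.57 ± 1.34, adjusted p = 0.420), and 0 of them passed an unadjusted p under 0.05 in limma.

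The cell cycle and mesenchyme lists lay on the lower side. Of 27 cell cycle genes 0 were called by limma, 0 were higher and 15 lower at an unadjusted p under 0.05, against 6.5% of all genes lower. Both E16.5 animals were below both E15.5 animals in 20 of 25 members, against 23.4% of all genes. The differences were small, with a median of −0.31 on the log2 scale. Ccnb1, the mitotic cyclin B1, was at 33.0 and 31.1 FPKM and then at 17.5 and 24.8 FPKM (−0.60 ± 0.15, adjusted p = 0.113), and Mki67, a marker of dividing cells, at 36.4 and 32.8 FPKM and then at 34.7 and 25.4 FPKM (−0.21 ± 0.15). The same list had medians of −0.46 in WT and −0.22 in TGFβ3+/−. Of 28 palatal mesenchyme genes 0 were called, 1 was lower at an unadjusted p under 0.05 and the median was −0.30. This list had medians of −0.30 in WT and 0.32 in TGFβ3+/−. The difference from TGFβ3+/− was negative at an unadjusted p under 0.05 for 4 of 28 members, beside 353 of 12620 genes. The 1 gene lower between the ages was Twist1, a transcription factor of cranial mesenchyme, at 54.4 and 66.2 FPKM and then at 36.5 and 39.4 FPKM (−0.65 ± 0.19, adjusted p = 0.169). The homeobox genes Msx1 (42.5 and 38.3, then 33.8 and 30.3 FPKM) and Prrx1 (109 and 107, then 87.1 and 70.1 FPKM) also had both E16.5 animals below both E15.5 animals, as did 23.4% of all genes.

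**Figure D5:**
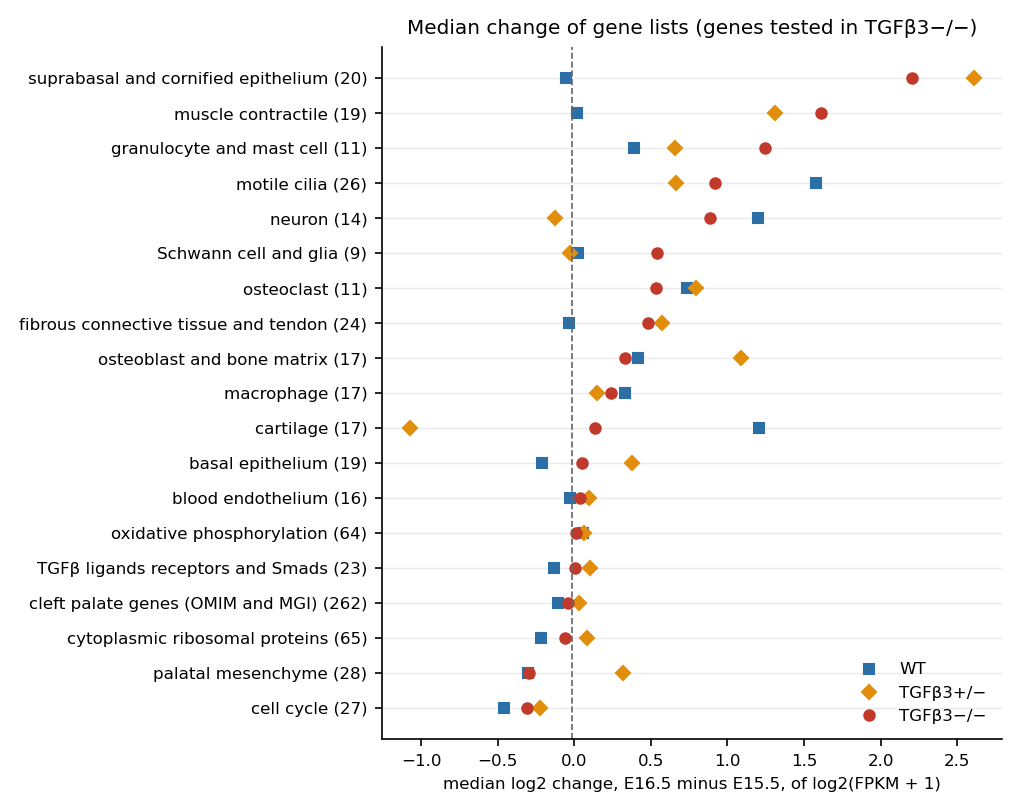
Median log2 change from E15.5 to E16.5 of 19 gene lists in TGFβ3−/− (circles), TGFβ3+/− (diamonds) and WT (squares), with the number of genes tested in TGFβ3−/− in brackets and a dashed line at −0.01, the median of all genes tested there. The suprabasal and cornified list was at 2.20 in the knockout, at −0.05 in WT and at 2.61 in TGFβ3+/−, and the cell cycle list was below the line in all 3 genotypes.

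The TGFβ pathway itself differed little between the ages. Of 23 ligands, receptors, Smads and binding proteins 0 were called in limma, and the median change was 0.01. At an unadjusted p under 0.05, 2 were higher and 2 lower, beside 7.19% and 6.5% of all genes. Of the ligands, Tgfb1 was at 16.8 and 21.0 FPKM at E15.5 and at 24.2 and 18.3 FPKM at E16.5, and Tgfb2 at 19.4 and 20.6 and then at 19.1 and 20.4 FPKM. Neither of the kinase receptors Tgfbr1 and Tgfbr2 was called. Tgfbr1, the type I receptor, was at 31.4 and 34.1 FPKM and then at 19.6 and 26.6 FPKM (−0.50 ± 0.20, adjusted p = 0.293). Tgfbr2, the type II receptor, was at 13.8 and 14.0 FPKM and then at 16.6 and 16.8 FPKM (0.25 ± 0.11, adjusted p = 0.337). Smad7, an inhibitor that the pathway induces, was at 6.12 and 6.86 FPKM and then at 4.96 and 3.80 FPKM (−0.48 ± 0.20, adjusted p = 0.310). The signal carriers Smad2 (7.77 and 8.46, then 7.78 and 9.65 FPKM) and Smad3 (13.6 and 19.1, then 16.5 and 17.1 FPKM) overlapped between the ages.

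Of 262 cleft palate (CP) genes from human and mouse databases 0 were called in limma, and their median was −0.04. At an unadjusted p under 0.05, 12 were higher (beside 7.19% of all genes) and 17 lower (beside 6.5% of all genes). Of 8 genes that the study singled out, Kcnj13 had no value in TGFβ3−/−. Six3, a forebrain and pituitary homeobox gene, was at 1.73 and 2.77 FPKM at E15.5 and at 6.69 and 4.53 FPKM at E16.5 (1.02 ± 0.58, adjusted p = 0.469). Chrng, the fetal subunit of the muscle acetylcholine receptor, was at 3.29 and 2.43 FPKM and then at 6.35 and 6.12 FPKM (0.92 ± 0.52, adjusted p = 0.461), and Shh, a ligand made by the oral epithelium, at 2.41 and 2.21 FPKM and then at 3.25 and 3.83 FPKM (0.45 ± 0.37, adjusted p = 0.622). All 3 had both E16.5 animals above both E15.5 animals, as did 24.7% of all genes. Lhx8, Meox2, Foxc2 and H19 had log2 changes of −0.45 ± 0.55, 0.10 ± 0.47, −0.13 ± 0.52 and 0.27 ± 0.23.

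Most of the genes called in the knockout had the same direction in the other genotypes. Of the 20 genes called higher, 18 were tested in TGFβ3+/− and 16 of those were called higher there, where 0.506% of all genes were. In WT 19 were tested and 12 were called higher, where 1.94% of all genes were, and 18 had a positive change. More genes were called in WT (254 higher and 12 lower, 0.0918%, of 13076) and in TGFβ3+/− (65 higher and 7 lower, 0.0545%, of 12840) than in TGFβ3−/−. These counts do not test whether the genotypes differ.

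The tests of that difference called no gene with all animals in the fit, and both use the same TGFβ3−/− animals. The sex of the animals changed differently with age in each genotype, so neither test is of genotype alone. Between the changes of TGFβ3−/− and WT 0 of 12722 genes passed an adjusted p under 0.05 in limma, and 829 had an unadjusted p under 0.05 (6.52%). That count moved with single animals: leaving out E15.5 WT replicate 2 gave 29 genes, leaving out E15.5 WT replicate 1 gave 3, and 4 were found without the first E15.5 knockout animal. Between TGFβ3−/− and TGFβ3+/− 0 of 12620 genes passed, and 521 had an unadjusted p under 0.05 (4.13%), and 3 passed without E15.5 TGFβ3+/− replicate 2. The smallest p against WT belonged to 2810422J05Rik, whose E15.5 value rested on a partial locus. Stfa3, a stefin of skin and granulocytes, was at 3.49 and 3.22 FPKM at E15.5 and at 7.33 and 9.55 FPKM at E16.5 in TGFβ3−/−, and at 39.7 and 16.8 FPKM and then at 4.58 and 4.95 FPKM in WT (difference of the changes 3.33 on the log2 scale, adjusted p = 0.317). Twist2, a transcription factor of dermis, was at 9.62 and 9.75 and then at 7.90 and 8.71 FPKM in TGFβ3−/−, and at 39.1 and 19.8 and then at 6.69 and 6.34 FPKM in WT (1.74, adjusted p = 0.581). For both genes the high animals were those of E15.5 WT.

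Some genes had an assembled locus at only 1 age and so could not be tested. In all 4 libraries of E16.5 but in none of E15.5, 18 genes had at least 1 FPKM, and 2 genes, Xist and Gm7204, had the opposite pattern. A missing locus means that the files list none over the gene's exons, which is not a measured 0. Psca, a surface protein of stratified and secretory epithelium, was at 10.03 and 6.64 FPKM in the E16.5 TGFβ3−/− animals. The cornified envelope genes Crct1 and Lce3a were at 4.95 and 3.24 FPKM and at 3.62 and 1.67 FPKM, and Slpi, a protease inhibitor of mucosal secretions, at 3.81 and 2.17 FPKM. Retnlg, a resistin-like protein of neutrophils, was at 2.35 and 2.14 FPKM, and Tff2, a trefoil peptide of mucus, at 1.81 and 1.37 FPKM. Kdm5d and Uty, also among the 18, lie on the Y chromosome. Of the 18 genes, 15 had a value at E15.5 in TGFβ3+/− or WT palates, Psca, Crct1 and Slpi in E15.5 WT replicate 1 among them, and 3 had none there (Lce3a, Ldlrad1 and E230028L10Rik).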

How the data were processed

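RNA of palatal shelves was sequenced as paired-end reads on an Illumina HiSeq instrument. After quality checks with FastQC 0.10.1 the authors aligned the reads with TopHat 1.4.1, using mouse build mm9 (NCBIM37), and assembled loci with Cufflinks 1.3.0, and the deposited values are FPKM per locus, with bounds of their 95% intervals and no read counts, so the depth behind a value is unknown. The median half-width of those intervals within a library was 13.1% to 18.8% of the value in the TGFβ3−/− libraries of E15.5 and E16.5. The preparation kit does not mark strand. The loci carry positions and no gene names.

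Loci were joined to genes by their overlap with GENCODE vM1 exons (bedtools 2.31.1, Python 3.11.15). Each locus was given to the gene with the largest overlap and weighted by the share of that gene's exon bases it covers. Genes were left without a value in a library if their locus took in 50% or more of another protein-coding gene's exon bases, if loci of other genes took in that much of theirs, or if they had no locus. Lanes of an animal were averaged. limma 3.58.1 (R 4.3.3, eBayes with trend) was fitted to log2(FPKM + 1) of all 18 animals in 9 groups, for genes with at least 1 FPKM in at least 2 animals and a value in at least 1 animal of each group compared. Fold changes are on that scale and understate those of low genes. Calls needed a Benjamini-Hochberg adjusted p under 0.05 and a fold of at least 2, differences between genotypes the adjusted p alone. Adjusted p-values in the text are from this fit. Nothing in the labels says which animals shared a litter, so the p-values measure the spread between these animals.

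The members and the gene lists were chosen with earlier results of these data known. The genes named by rule were Tgfb3, the 15 largest changes in each direction among called genes whose ages do not overlap and that have values in both lanes of all 4 animals, called list members, the 3 most abundant members of each of 45 lists, the 10 smallest p-values of each difference between genotypes, the TGFβ pathway genes and 8 genes of the study. Other genes were named after their values were seen. The fit was tested on simulated data over 10338 genes: of 100 genes changed 4-fold, 89 passed the adjusted p and 88 were called, and of 100 changed 2-fold, 62 passed the adjusted p and 23 also the fold of at least 2. Same-numbered animals did not deviate together (correlation of deviations 0.087), and they are different embryos. Promoters came from RefSeq (GRCm38.p6), with an entry for 13 of the 23 called genes. Alternatives tried were other pseudocounts, filters, scalings, groups in the model, lanes, ways of joining loci, and leaving out each animal. One E15.5 TGFβ3−/− library carries different lane numbers in its title and its file, and leaving it out was an alternative.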

Additional observations from a re-analysis of the deposited data

How the results depend on the processing

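The counts of genes called in TGFβ3−/−, 20 higher and 3 lower, were recomputed under each alternative. With a pseudocount of 5 they were 9 and 1, with a 5 FPKM filter 13 higher, with common-sum scaling 8 and 1, 40 and 5 when the model held no other groups, with the 6 groups of E15.5 and E16.5 9 higher, and with a replicate block 11 higher and 2 lower. The second lanes alone gave 7 lower and 1 locus per gene 6 lower. Over genes with a value in all 18 animals, an alternative chosen after seeing the data, 5 were higher, and with the Xist level as a covariate over those genes 3 were higher and 0 lower (limma, 794 in either direction at an unadjusted p under 0.05). Leaving out each animal gave 3 to 48 higher and 1 to 33 lower. The cause of these shifts was not tested, except that fewer genes or animals enter some fits. Scaling moved the median change of all genes from −0.01 to 0.02 or −0.02.

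For the difference from WT, with 0 genes called, 1 gene was called with a pseudocount of 0.1, with the 5 FPKM filter and with the second lanes, and 0 to 29 when an animal was left out, the 29 without E15.5 WT replicate 2. For the difference from TGFβ3+/−, also 0, 1 gene was called with a pseudocount of 0.1 and with the first or second lanes, 2 with 1 locus per gene and with an unweighted sum of loci, and 0 to 3 when an animal was left out. The replicate block, whose numbers do not pair the embryos, called 0 genes in either. Of 192 named genes 73 had a change of the other sign under at least 1 alternative, and none of these was a called gene. Among all values of single genes under the alternatives, 188 lost a call, 8 gained one and 218 moved by more than their error without a call. Each group has 2 animals and the depth is unknown.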

Other observations

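One of the E16.5 TGFβ3−/− animals, replicate 2, had high levels of pituitary hormone genes. Pomc, the precursor of corticotropin, was at 35.3 FPKM in replicate 2 and at 1.1 FPKM in replicate 1, against 1.43 and 1.97 FPKM at E15.5. Gh, growth hormone, was at 16.2 FPKM and Tshb, the beta subunit of thyrotropin, at 11.7 FPKM in replicate 2, and neither had a value in the other TGFβ3−/− animals of the 2 ages. Pomc was also at 13.5 FPKM in 1 of the E16.5 WT animals. These genes were looked at after their values were seen, and no test was made.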
